A study of Homo sapiens with 8 samples.

Results

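The genes described here belong to the defense of a cell against peroxidised lipids and to glutathione chemistry. There were 10 of them among the 26364 gene symbols of the expression table. They were taken by name, and chosen with earlier results of these data known. GPX4, GPX1, GCLC, GCLM, GSS, AIFM2, NQO1 and TXNRD1 stand on the protective side and are called protectors, and ACSL4 and LPCAT3 stand on the promoting side and are called drivers. Each symbol matched 1 row. All 10 had a level of 1 TPM (transcript per 1000000) or more in at least 2 libraries, and so were among the 14151 genes tested.

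Ferroptosis is a form of regulated cell death in which iron-dependent oxidation damages membrane phospholipids that carry polyunsaturated fatty acids. Glutathione peroxidases remove peroxides at the expense of glutathione, and a separate system of reductases keeps coenzyme Q and other quinones in a form that traps lipid radicals. ACSL4 and LPCAT3 work on the other side, since they load polyunsaturated fatty acids into phospholipids and so supply what can be oxidised. Much of the glutathione and quinone system is under the transcription factor NRF2, which binds the antioxidant response element.

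The RNA-seq libraries came from MV4-11, a human acute myeloid leukemia (AML) cell line with an internal tandem duplication of FLT3 and an MLL-AF4 fusion, both shared by all groups. There were 4 groups of 2 replicates each: DMSO as vehicle (control), tranylcypromine (TCP, an inhibitor of the histone demethylase LSD1) at 5 µM, palbociclib (an inhibitor of the kinases CDK4 and CDK6) at 0.5 µM, and both molecules at these doses (combination). By the labels every culture was harvested on day 4, and by the methods palbociclib preceded TCP by 1 day in the combination. The libraries come from a single cell line, and nothing states that the replicates were separate cultures, so p-values measure the spread between these libraries, which may be technical.

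The libraries hold TPM, which are scaled by gene length to a sum of 1000000 and keep no trace of sequencing depth. All 12 markers of the AML line were above 0 in every library. The 10 most abundant genes took 9.12% to 9.67% of all TPM without palbociclib and 14.0% to 15.8% with it. The median gene had a log2 fold change of -0.04 with TCP, -0.16 with palbociclib and -0.22 with the combination, and the changes below can be read relative to these values. Median-ratio scaling of the libraries brings these medians to about 0, and moves the share of increases among the genes called from 32.8% to 50.3% under palbociclib and from 29.8% to 50.1% under the combination. Palbociclib replicate 2 stood apart in stromal markers. The 10 markers summed to 81.0 TPM there, with COL1A1 at 22.2 TPM, and to 11.9 to 29.9 TPM in the other 7 libraries. TAGLN alone had 10.9 of the 11.9 TPM in control replicate 1, and 14.1 TPM in palbociclib replicate 2. POSTN was at 0 in all 8 libraries. The study cultures its cell lines with human HS-5 stromal cells, and whether the sequenced cultures held them is not stated. Of the lymphoid and erythroid markers, 7 to 9 of 12 were at 0 in each library, CD3E and HBB among them.

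Few of these genes moved far. A gene is said to have passed the test, or to have risen or fallen, when its Benjamini-Hochberg adjusted p over all 14151 genes was below 0.05 in limma on log2(TPM + 1). Under TCP 0 of the 10 genes passed in limma, against 0.431% of all genes tested, and 1 had an unadjusted p below 0.05, against 8.77%. Under palbociclib 4 passed, 1 higher and 3 lower, against 45% of all genes, with 14.8% higher and 30.2% lower. Under the combination 3 passed, 1 higher and 2 lower, against 53.6% of all genes, with 15.9% higher and 37.6% lower. The shares under palbociclib and the combination are thus no larger than the background. All genes that passed were protectors. Neither driver passed in the values as deposited, though LPCAT3 did with median-ratio scaling. The study calls a gene differentially expressed (DEG) when it changes 2-fold or more in either direction with an adjusted p below 0.01, and 0 of the 10 genes met these limits against control. By these limits 0.0565%, 9.1% and 13.7% of all genes were DEG under TCP, palbociclib and the combination. The libraries of the 2 groups did not overlap for 3 of the 10 genes with TCP, 9 with palbociclib and 7 with the combination, against 34.7%, 76.2% and 80.2% of all genes.

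With replicate number as a block in the model, 1, 5 and 6 of the 10 genes passed under TCP, palbociclib and the combination, against 1.39%, 55.5% and 61.6% of all genes. Same-numbered libraries deviated together, which is why the blocked values are given below wherever they change a call. Without palbociclib replicate 2, 1 of the 10 genes passed under palbociclib, and 27.9% of all genes did so. Without control replicate 1 it was also 1, and without control replicate 2 it was 2, against 31.3% and 30.9% of all genes.

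**Figure D1:**
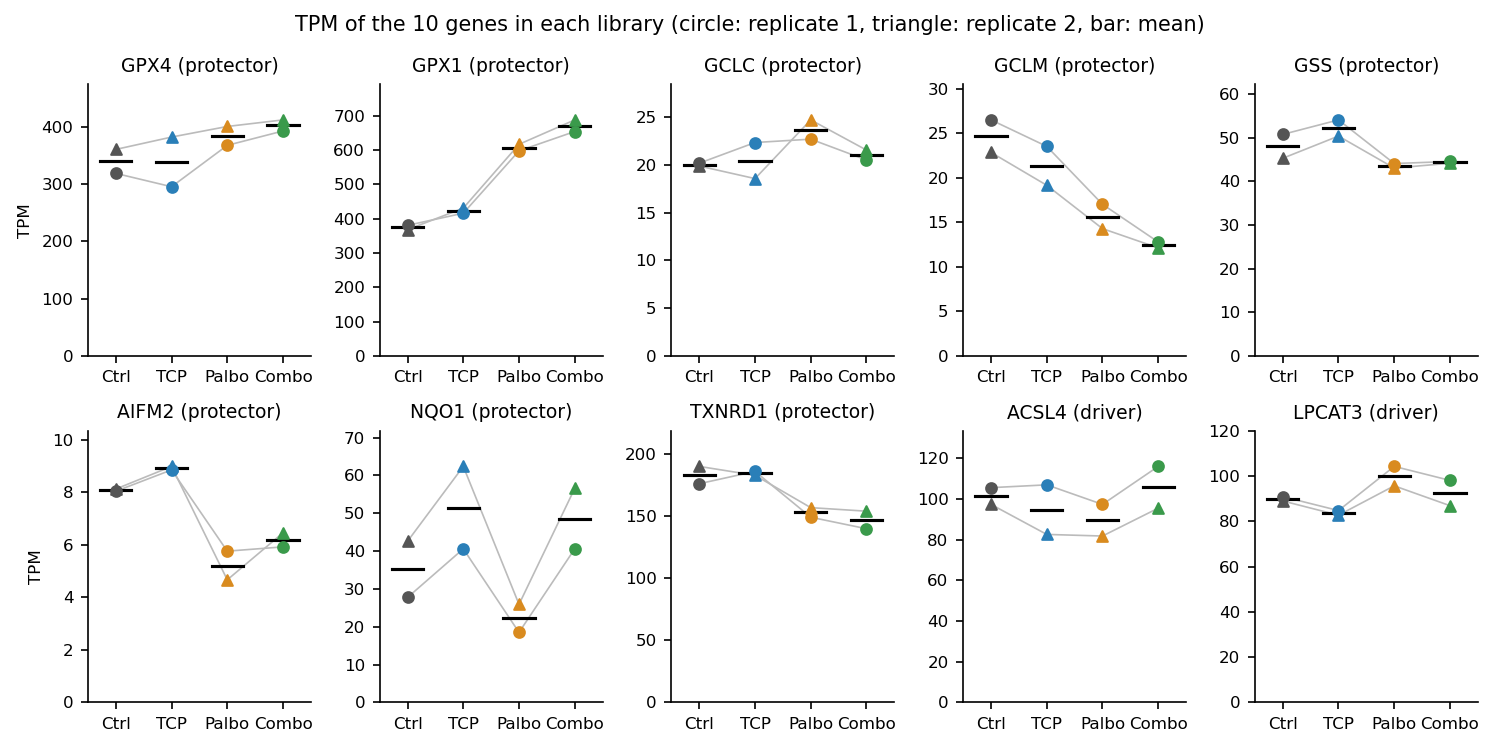
TPM of each of the 10 genes (vertical axis, from 0) in the 8 libraries by group (horizontal axis), with circles for replicate 1, triangles for replicate 2, grey lines joining libraries of the same number and black bars for group means. GPX1 climbs from about 374 TPM in control to 671 TPM under the combination, GCLM falls from 24.7 to 12.5 TPM, and in NQO1 the triangles lie above the circles in all 4 groups while both lines take the same shape.

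GPX4 (chromosome 19, 1103981 to 1106790 in GRCh37, plus strand) encodes the selenoenzyme that reduces phospholipid hydroperoxides within membranes. It was one of the more abundant transcripts, with a mean of 366 TPM over all libraries, above 97.6% of the genes tested. GPX4 stood at 318 and 360 TPM in control, 295 and 382 TPM under TCP, 367 and 400 TPM under palbociclib, and 392 and 412 TPM under the combination. The palbociclib and combination libraries lay above both control libraries, and the TCP libraries lay on either side of them. The log2 fold change of GPX4 under the combination was 0.25 (standard error 0.13, 95% interval -0.06 to 0.55), which did not pass (limma adjusted p = 0.151). GPX4 passed as an increase in the blocked model (limma adjusted p = 0.0349) and when either TCP library was left out of the fit (limma adjusted p = 0.0471 and 0.0474). With median-ratio scaling of the libraries the log2 fold change was 0.48 (limma adjusted p = 0.039). Under palbociclib it was 0.18 (95% interval -0.13 to 0.49) while TCP gave -0.01 (95% interval -0.32 to 0.29), and neither passed. With the block and median-ratio scaling together, a fit chosen after seeing the data, GPX4 passed as an increase with palbociclib (0.34, limma adjusted p = 0.0273).

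GPX1 (chromosome 3, 49394607 to 49396038, minus strand) encodes the cytosolic glutathione peroxidase, which reduces hydrogen peroxide and soluble hydroperoxides. GPX1 had 381 and 368 TPM in control, 416 and 431 TPM under TCP, 598 and 617 TPM under palbociclib, and 654 and 688 TPM under the combination. The 4 groups did not overlap and followed each other in this order. GPX1 rose under palbociclib by a log2 fold change of 0.70 (standard error 0.06, limma adjusted p = 0.000368) and under the combination by 0.84 (standard error 0.06, limma adjusted p = 0.000108). The mean TPM of GPX1 was 62.2% above control under palbociclib and 79.3% above it under the combination. Under TCP alone the log2 fold change was 0.18, with an unadjusted p of 0.0294 in limma and an adjusted p of 0.48. Between the combination and palbociclib the difference was 0.14 (95% interval -0.01 to 0.30), which did not pass (limma adjusted p = 0.318). In GPX1 the calls under palbociclib and the combination were kept in all alternatives tried. Part of the GPX1 exons, 39.9% of their bases, is shared with another protein-coding gene model on the same strand in the GENCODE annotation, and reads could be counted for either.

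As a sum, markers of monocyte and granulocyte maturation followed the same order of groups as GPX1, though control and TCP libraries overlapped. Those 12 markers, LYZ, S100A8 and S100A9 among them, summed to 366 and 859 TPM in control, 853 and 1859 TPM under TCP, 19590 and 21770 TPM under palbociclib, and 39450 and 38810 TPM under the combination. At least 1 TPM was reached by 6 and 8 of the 12 in control and by 10 of the 12 in both combination libraries, and MRC1 was at 0 in every library. The sum was higher in all libraries with palbociclib than in any without it. Libraries with and without palbociclib were likewise apart in GCLM, AIFM2 and TXNRD1, and in some genes of the wider lists such as HMOX1. The sum was above control in both treatments, but not every gene given here kept its sign between them. Against control, the log2 fold change of NQO1 was -0.63 with palbociclib and 0.47 with both molecules. That of CAT, the gene of catalase, was 0.75 and -0.12 in the same order. Of 10 tested markers 8 rose and 0 fell under palbociclib, against 14.8% and 30.2% of all genes. Not every marker followed the sum. VCAN had 2.86 and 2.79 TPM under palbociclib and 14.7 and 17.0 TPM under TCP. ITGAM had 1.91 and 1.8 TPM under palbociclib and 6.5 and 3.1 TPM under TCP. The part of maturation in the changes of the genes given here was not tested. In bulk RNA, a change in the share of cells that express a gene and a change in its RNA per cell cannot be told apart.

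Glutathione is made in 2 steps. Glutamate-cysteine ligase, the rate-limiting enzyme, is a pair of the catalytic subunit GCLC and the modifier subunit GCLM, and GSS encodes the synthetase that adds glycine. The subunits took different courses. GCLM (chromosome 1, 94350755 to 94375012, minus strand) had 26.5 and 22.9 TPM in control, 23.5 and 19.2 TPM under TCP, 17.0 and 14.3 TPM under palbociclib, and 12.8 and 12.1 TPM under the combination. All palbociclib and combination libraries were below both control libraries, and the combination libraries were below those with palbociclib alone. GCLM fell under palbociclib by 0.63 on the log2 scale (standard error 0.14, limma adjusted p = 0.0104) and under the combination by 0.93 (standard error 0.14, limma adjusted p = 0.00154). The mean of GCLM under the combination was 0.505 times that of control, and the 95% interval of its log2 fold change ran from -1.26 to -0.60. The combination lay below palbociclib alone by 0.30 on the log2 scale (95% interval -0.63 to 0.03), which did not pass (limma adjusted p = 0.326, or 0.0764 in the blocked model). Under palbociclib the call was lost without palbociclib replicate 2 (log2 fold change -0.51, limma adjusted p = 0.0697) and without control replicate 1 (-0.52, limma adjusted p = 0.0658).

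GCLC (chromosome 6, 53362139 to 53481768, minus strand) had 20.2 and 19.9 TPM in control, 22.3 and 18.5 TPM under TCP, 22.7 and 24.7 TPM under palbociclib, and 20.5 and 21.5 TPM under the combination. Its log2 fold change was 0.23 under palbociclib (95% interval -0.03 to 0.49, limma adjusted p = 0.126) and 0.07 under the combination (95% interval -0.19 to 0.32, limma adjusted p = 0.631). GCLC did not pass in the values as deposited. With median-ratio scaling it passed as an increase, by 0.39 under palbociclib and 0.29 under the combination (limma adjusted p = 0.0191 and 0.0481).

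The ratio of GCLC to GCLM within a library does not depend on the scaling between libraries, and was looked at after the values of both genes had been seen. It was 0.76 and 0.869 in control, 0.948 and 0.968 under TCP, 1.33 and 1.73 under palbociclib, and 1.6 and 1.77 under the combination. GCLM was thus the more abundant subunit transcript per length in control and TCP libraries, and GCLC in palbociclib and combination libraries. With 2 libraries against 2, an exact two-sided permutation test of such a ratio cannot give a p below 0.333.

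GSS (chromosome 20, 33516235 to 33543830, minus strand) changed little. GSS had 50.8 and 45.3 TPM in control, 54.1 and 50.4 TPM under TCP, 44.1 and 43.0 TPM under palbociclib, and 44.5 and 44.1 TPM under the combination. Its log2 fold changes with TCP, palbociclib and the combination were 0.12, -0.14 and -0.11, none of which passed. The direction under palbociclib and the combination turned positive with quantile normalization and with median-ratio scaling.

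AIFM2 (chromosome 10, 71857979 to 71892690, minus strand), also called FSP1, encodes the oxidoreductase that regenerates reduced coenzyme Q independently of glutathione. It was the least abundant of the 10 genes. AIFM2 had 8.04 and 8.13 TPM in control, 8.86 and 8.99 TPM under TCP, 5.76 and 4.67 TPM under palbociclib, and 5.92 and 6.46 TPM under the combination. The TCP libraries were the highest, and all libraries with palbociclib were below all libraries without it. AIFM2 fell under palbociclib by 0.55 on the log2 scale (standard error 0.12, limma adjusted p = 0.0106). This call missed the threshold without palbociclib replicate 2 (log2 fold change -0.43, limma adjusted p = 0.0691), without control replicate 1 (-0.56, limma adjusted p = 0.051) and without control replicate 2 (-0.55, limma adjusted p = 0.0549). Under the combination the log2 fold change of -0.34 lay at the edge of the threshold (95% interval -0.63 to -0.04, limma adjusted p = 0.0543). AIFM2 passed there with the block (limma adjusted p = 0.045), without the trend (limma adjusted p = 0.0379) and without palbociclib replicate 2 (limma adjusted p = 0.0495). Exons of MACROH2A2 on the opposite strand cover 19.2% of the AIFM2 exon bases. Their reads may not have been told apart from those of AIFM2 if the counting ignored the strand.

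TXNRD1 (chromosome 12, 104609557 to 104744085, plus strand) encodes the cytosolic thioredoxin reductase, a selenoenzyme. TXNRD1 had 176 and 190 TPM in control, 186 and 183 TPM under TCP, 149 and 157 TPM under palbociclib, and 140 and 154 TPM under the combination. All libraries with palbociclib were again below all libraries without it. TXNRD1 fell by 0.26 under palbociclib (standard error 0.08, limma adjusted p = 0.0337) and by 0.32 under the combination (standard error 0.08, limma adjusted p = 0.0131). These decreases were close to that of the median gene. With median-ratio scaling they were -0.09 under both treatments and did not pass (limma adjusted p = 0.428 and 0.446). Under palbociclib the call was also lost without the trend (limma adjusted p = 0.0627) and without any single palbociclib or control library (limma adjusted p from 0.0597 to 0.171). Under the combination it was lost without control replicate 2 or combination replicate 1 (limma adjusted p = 0.0818 and 0.0912).

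NQO1 (chromosome 16, 69740899 to 69760571, minus strand) encodes a quinone reductase of the cytosol and is a textbook target of NRF2. Among the 10 genes it differed most between replicates. NQO1 had 27.8 and 42.6 TPM in control, 40.6 and 62.4 TPM under TCP, 18.5 and 25.9 TPM under palbociclib, and 40.6 and 56.6 TPM under the combination. Replicate 2 was above replicate 1 in all 4 groups, by ratios of 1.39 to 1.54, as it was for 14.9% of all genes tested. Within a replicate number the order was the same in both: palbociclib lowest, then control, then the groups with TCP.

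Against the control library of the same number, NQO1 differed by 0.53 and 0.54 on the log2 scale with TCP and by -0.56 and -0.70 with palbociclib. Between the combination and palbociclib alone the differences were 1.09 and 1.10, and the mean of NQO1 under the combination was 2.19 times that under palbociclib. None of these comparisons passed without the block. The adjusted p-values in limma were 0.684 for TCP, 0.126 for palbociclib, 0.225 for the combination, each against control, and 0.113 for the combination against palbociclib. With the replicate block all 4 comparisons passed, with limma adjusted p = 0.0305, 0.000775, 0.00179 and 0.00177 in the same order. In the blocked model NQO1 thus rose under TCP, fell under palbociclib and rose under the combination. Without the block, leaving out 1 control or treated library moved the log2 fold change of NQO1 to between 0.232 and 0.84 under TCP, -0.928 and -0.327 under palbociclib, and 0.167 and 0.767 under the combination, and none of these passed.

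Stromal transcripts also differed between replicate numbers. COL1A1 was higher in replicate 2 by ratios of 6.65 in control, 11.9 with TCP, 16.8 with palbociclib and 1.65 with both. The ratio of NQO1 was 1.53, 1.54, 1.4 and 1.39 in the same groups. The part of stromal RNA in the level of NQO1 was not tested. On the opposite strand, an annotated long non-coding RNA shares 19.4% of the exon bases of NQO1, and the strand setting of the counting is not stated.

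**Figure D2:**
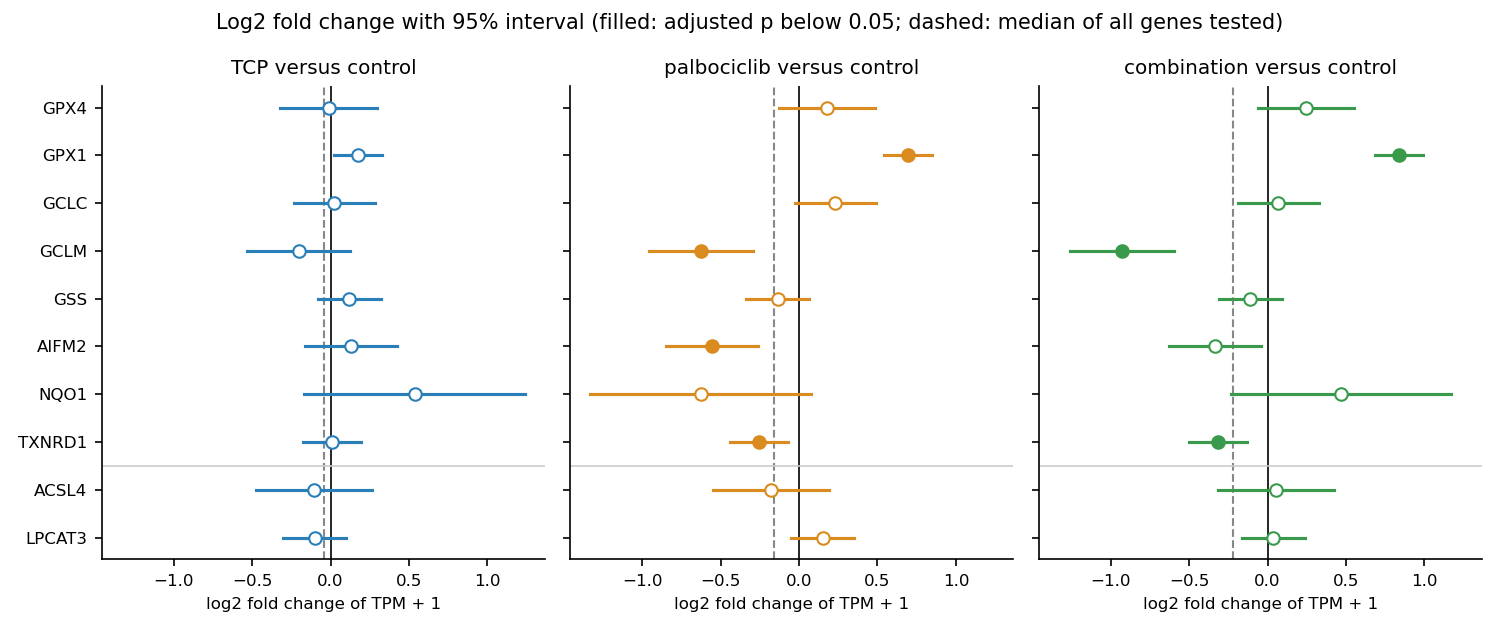
Log2 fold change on the log2(TPM + 1) scale (horizontal axis) of each gene (vertical axis) under TCP, palbociclib and the combination, each against control, with 95% intervals from limma without the replicate block, filled points for an adjusted p below 0.05 and a dashed line for the median of all genes tested. GPX1 lies to the right and GCLM to the left under palbociclib and the combination, no point is filled under TCP, the interval of NQO1 is the widest, and ACSL4 and LPCAT3 stay near 0.

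In the model without the block, the genes that fell under palbociclib were GCLM, AIFM2 and TXNRD1. Their promoters are shown because each held the core of the antioxidant response element, TGACNNNGC on either strand (GCNNNGTCA when read from the other strand). The windows span 250 bases before to 50 bases after an annotated start and come from RefSeq in the build GRCh38.p14. In each line the letters of the core are in capitals. GCLM lies on the minus strand at chr1:93909381-93909680, AIFM2 on the minus strand at chr10:70132776-70133075 and TXNRD1 on the plus strand at chr12:104215529-104215828.
GCLM: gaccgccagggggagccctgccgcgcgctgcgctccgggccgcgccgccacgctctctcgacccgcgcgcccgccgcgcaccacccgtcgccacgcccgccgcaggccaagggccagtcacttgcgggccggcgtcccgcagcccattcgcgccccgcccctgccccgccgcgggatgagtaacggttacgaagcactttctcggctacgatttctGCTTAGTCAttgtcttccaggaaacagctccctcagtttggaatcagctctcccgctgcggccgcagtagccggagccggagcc
AIFM2: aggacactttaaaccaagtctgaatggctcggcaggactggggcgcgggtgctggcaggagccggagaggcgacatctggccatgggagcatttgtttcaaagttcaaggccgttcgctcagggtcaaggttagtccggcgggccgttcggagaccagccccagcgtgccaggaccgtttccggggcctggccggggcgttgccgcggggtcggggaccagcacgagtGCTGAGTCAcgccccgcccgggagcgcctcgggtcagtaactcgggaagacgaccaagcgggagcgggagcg
TXNRD1: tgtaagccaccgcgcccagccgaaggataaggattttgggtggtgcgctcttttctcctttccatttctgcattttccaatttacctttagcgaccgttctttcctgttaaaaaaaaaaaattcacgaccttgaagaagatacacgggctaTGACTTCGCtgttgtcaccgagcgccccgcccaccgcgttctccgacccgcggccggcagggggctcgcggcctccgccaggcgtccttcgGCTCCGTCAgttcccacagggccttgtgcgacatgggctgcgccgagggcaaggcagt

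The core began 34 bases before the start in GCLM and 22 bases before it in AIFM2. In TXNRD1 it occurred at 99 and 8 bases before the start, and a further TXNRD1 start in the table had 1 match, 102 bases before it. Of the 10 genes, 9 had at least 1 promoter in the table and 3 held the core, and GSS had no entry. The core was found in 13.3% of all 35116 promoters of this length. The motif was chosen with the values of the genes known, so the match between the sequences and the direction of change is a description. NQO1 fell under palbociclib in the blocked model (limma adjusted p = 0.000775), and its window held no match. The lack of a match says only that these letters are not within the window. The decrease of TXNRD1 was close to that of the median gene and did not pass with median-ratio scaling (limma adjusted p = 0.428).

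ACSL4 (chromosome X, 108867473 to 108976632, minus strand) encodes the acyl-CoA synthetase that prefers arachidonic and adrenic acid. ACSL4 had 106 and 97.3 TPM in control, 107 and 82.6 TPM under TCP, 97.3 and 81.8 TPM under palbociclib, and 116 and 95.5 TPM under the combination. Every group overlapped with control. The log2 fold changes of ACSL4 were -0.11 under TCP (95% interval -0.48 to 0.26), -0.18 under palbociclib (95% interval -0.55 to 0.19) and 0.05 under the combination (95% interval -0.32 to 0.42). The intervals allow changes in either direction, so equal levels are not shown. In the fit with both block and median-ratio scaling, ACSL4 passed as an increase for the combination against control (0.28, limma adjusted p = 0.0125) and against TCP (0.35, limma adjusted p = 0.00594).

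LPCAT3 (chromosome 12, 7085347 to 7125781, minus strand) encodes the acyltransferase that places polyunsaturated acyl chains into lysophospholipids. LPCAT3 had 91.0 and 89.1 TPM in control, 84.8 and 82.8 TPM under TCP, 104 and 95.8 TPM under palbociclib, and 98.2 and 87.0 TPM under the combination. The TCP libraries were below and the palbociclib libraries above both control libraries. The log2 fold changes of LPCAT3 were -0.10, 0.15 and 0.04 under TCP, palbociclib and the combination, none of which passed (limma adjusted p = 0.802, 0.191 and 0.731). With median-ratio scaling LPCAT3 passed as an increase under palbociclib (0.31, limma adjusted p = 0.0231) and under the combination (0.27, limma adjusted p = 0.0355). The GENCODE annotation places exons of EMG1 on the opposite strand over 66.0% of the LPCAT3 exon bases. The library kit was stranded, but the strand setting of the counting is not stated, so reads of both genes may not have been told apart.

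The protectors were set against the drivers within each library, as the mean log2(TPM + 1) of the 8 protectors minus that of the 2 drivers. This difference was -0.72 and -0.59 in control, -0.58 and -0.33 under TCP, -0.89 and -0.66 under palbociclib, and -0.88 and -0.55 under the combination. In each group replicate 2 had the higher value. Against the control library of the same number it differed by 0.143 and 0.262 with TCP, by -0.166 and -0.0745 with palbociclib, and by -0.154 and 0.0449 with both molecules. The sign was thus the same in both replicates for TCP and palbociclib and not for the combination. The group means differed from control by 0.20, -0.12 and -0.05 in that order, beside a pooled SD of 0.17 that includes the gap between replicate numbers. With 1 library left out these differences ran from 0.0775 to 0.328, from -0.232 to -0.00885 and from -0.22 to 0.111, the ends being set by leaving out a library of the treated group. No test was made of the score. The ratio of ACSL4 to GPX4 was 0.332 and 0.27 in control, 0.362 and 0.216 under TCP, 0.265 and 0.204 under palbociclib, and 0.296 and 0.232 under the combination. The ratio of LPCAT3 to GPX4 ran from 0.247 to 0.286 in control and from 0.211 to 0.25 under the combination. The ratio of LPCAT3 to GPX4 under palbociclib, at 0.284 and 0.239, overlapped with control. GPX4 was thus the more abundant transcript per length in every library. Both palbociclib libraries were below both control libraries in the ratio of ACSL4 to GPX4, but narrowly, with 0.265 against 0.27 for the nearest.

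**Figure D3:**
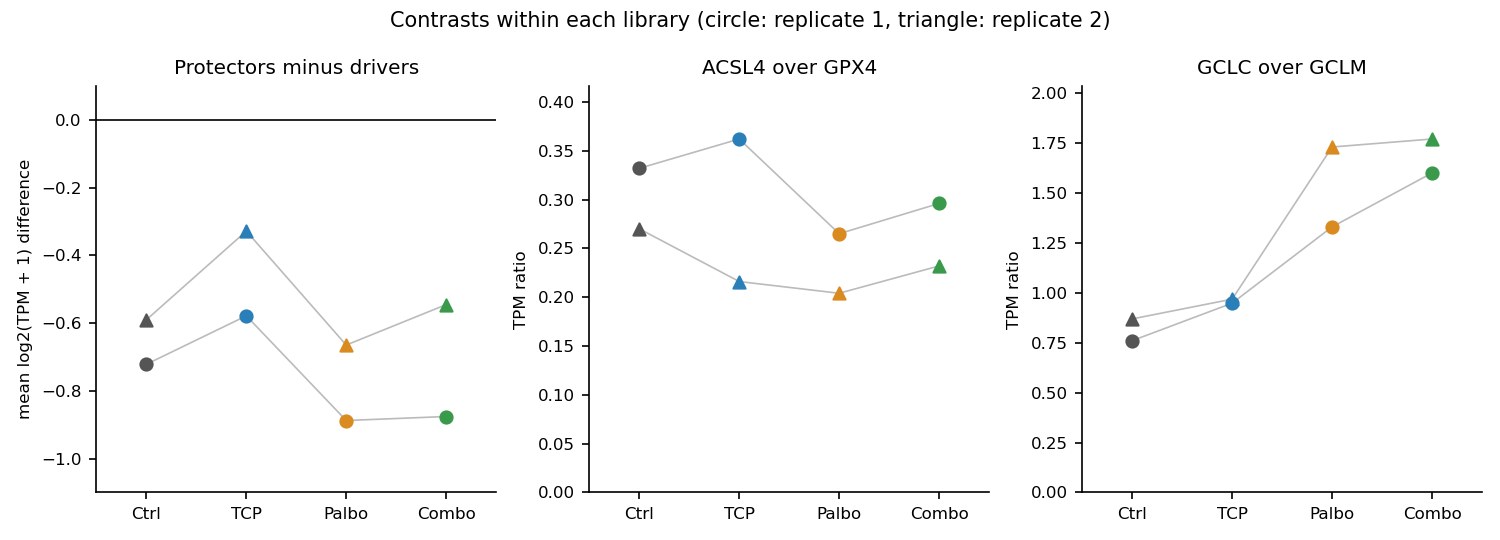
Contrasts within each library by group (horizontal axis), with circles for replicate 1, triangles for replicate 2 and grey lines joining the same number. The left panel gives the mean log2(TPM + 1) of the protectors minus that of the drivers, the middle panel the TPM ratio of ACSL4 to GPX4 and the right panel the TPM ratio of GCLC to GCLM; the last rises from 0.76 and 0.869 in control to 1.6 and 1.77 under the combination, and the first overlaps between control and the combination.

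Against the single molecules, the combination differed from palbociclib in 0 of the 10 genes by limma, against 3.49% of all genes tested, with 1 gene, NQO1, at an unadjusted p below 0.05, against 17.5%. NQO1 was also the gene that passed with the block, against 8.87% of all genes. Against TCP the combination differed in 4 genes, 1 higher and 3 lower, against 50.2% of all genes, with 16.5% higher and 33.8% lower. GPX1 was higher by 0.66, and GCLM, AIFM2 and TXNRD1 were lower, with log2 fold changes of -0.72, -0.47 and -0.33 (limma adjusted p = 0.000292, 0.00492, 0.0186 and 0.0121). With the block 6 genes passed, GPX4 and GSS being added (limma adjusted p = 0.0305 and 0.0241), against 59.5% of all genes. The AIFM2 difference missed the threshold when any TCP or combination library was left out (limma adjusted p from 0.0506 to 0.0978), and that of TXNRD1 without combination replicate 1 (limma adjusted p = 0.086). With median-ratio scaling AIFM2 and TXNRD1 did not pass against TCP (limma adjusted p = 0.0822 and 0.22), while LPCAT3 did, at 0.32 (limma adjusted p = 0.018). The departure of the combination from the sum of the single changes passed for 0 of the 10 genes in limma, with 0 at an unadjusted p below 0.05, against 0% and 6.39% of all genes. The largest departures were those of NQO1, at 0.56 (95% interval -0.44 to 1.55), and ACSL4, at 0.34 (95% interval -0.18 to 0.87). With the replicate block their unadjusted p-values in limma were 0.00131 and 0.0151, and the adjusted p-values 0.175 and 0.316.

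The neighbors of these genes in the pathway were taken from 7 lists, and some had larger changes than the genes themselves. The lists hold more genes, and those named are by rule the largest changes of each, so this was likely beforehand. Like the 10 genes, the lists were chosen with earlier results known. Their counts can be read against 15.9% higher and 37.6% lower for all genes under the combination, or 23.5% and 23.4% with median-ratio scaling. A change against control does not separate the combination from palbociclib alone, for which some values are given. Of 15 genes of glutathione supply and turnover, 3 rose and 8 fell under the combination, and the list had a median log2 fold change of -0.96 beside -0.22 for all genes. SLC7A11 encodes the cystine transporter subunit and is also an NRF2 target. It had 29.2 and 24.3 TPM in control, 101 and 114.5 TPM under palbociclib, and 72.9 and 78.5 TPM under the combination. Against control it rose by 1.97 under palbociclib (limma adjusted p = 0.00166) and by 1.47 under the combination (standard error 0.28, limma adjusted p = 0.00414). GGT1, a gamma-glutamyl transferase, rose by 1.11 (limma adjusted p = 8.32e-05). The transsulfuration enzymes CBS and CTH, which make cysteine from homocysteine, fell to log2 fold changes of -3.68 and -3.29 (limma adjusted p = 0.000208 and 0.000708). CHAC1, which degrades glutathione, had a log2 fold change of -2.81 (limma adjusted p = 0.000332). Under palbociclib alone CBS, CTH and CHAC1 had log2 fold changes of -3.46, -3.445 and -2.61 (limma adjusted p = 0.000444, 0.000887 and 0.000697). Between the combination and palbociclib alone 0 of the 15 genes passed, against 3.49% of all genes.

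Of 26 NRF2 regulators and targets outside the 10 genes, 12 rose and 5 fell under the combination, with a median of 0.27. With median-ratio scaling 13 rose and 0 fell, with a median of 0.50. HMOX1, which encodes heme oxygenase, rose by 2.99 on the log2 scale, from 4.67 and 2.95 TPM in control to 32.0 and 42.0 TPM with both molecules (limma adjusted p = 8.75e-05). PGD, which makes NADPH in the pentose phosphate pathway, rose by 1.65 (limma adjusted p = 2.76e-05). NFE2L2, the gene of NRF2 itself, had a log2 fold change of 0.26 (limma adjusted p = 0.0257). KEAP1, its inhibitor, had one of 0.09 (limma adjusted p = 0.503). BACH1 of the same list rose by 0.49 (limma adjusted p = 0.0121). CUL3, MAFF and MAFK had log2 fold changes of -0.41, -0.998 and -0.46 (limma adjusted p = 0.00637, 0.0188 and 0.0473). These decreases did not pass with median-ratio scaling. MAFG, at -0.097, did not pass (limma adjusted p = 0.251). NFE2L2, KEAP1, BACH1, CUL3, MAFF, MAFK and MAFG were named outside the rule for named genes, and HMOX1 and PGD by it. GCLM fell in the same libraries in which HMOX1 and PGD rose.

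Of 22 tested genes of other lipid radical suppression, 0 rose and 17 fell under the combination in limma, with a median of -0.68. With median-ratio scaling 1 rose and 13 fell. Under palbociclib alone 1 rose and 14 fell, against 14.8% and 30.2% of all genes. The combination differed from palbociclib in 0 of the 22, against 3.49%. The largest decreases of this list under the combination were SCD, which makes monounsaturated fatty acids, MBOAT1, an acyltransferase, and COQ3, an enzyme of coenzyme Q synthesis. Their log2 fold changes were -1.83, -1.72 and -1.59 (limma adjusted p = 0.000441, 0.000342 and 0.000157). Of 9 genes of selenoprotein synthesis, which GPX4, GPX1 and TXNRD1 depend on, 0 rose and 5 fell in limma, with a median of -0.63, and the same counts were found with median-ratio scaling. SECISBP2, which binds the selenocysteine insertion element, had a log2 fold change of -1.08 (limma adjusted p = 0.000269).

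Of 19 tested genes of polyunsaturated lipids and lipid peroxidation other than ACSL4 and LPCAT3, 6 rose and 8 fell, with a median of -0.17 that turned to 0.06 with median-ratio scaling. ALOX5AP, the partner of 5-lipoxygenase, rose by 1.76 (limma adjusted p = 0.00135). The gene of 5-lipoxygenase itself, ALOX5, peaked at 0.29 TPM, in combination replicate 2, and missed the level required for testing. CYB5R1 and POR, oxidoreductases that pass electrons from NADH and NADPH, rose by 1.24 and 1.17 (limma adjusted p = 4.46e-05 and 7.1e-05). ACSL5 and the desaturase FADS2 had log2 fold changes of -1.55 and -1.43 (limma adjusted p = 0.000295 and 0.000822). Of 15 tested genes in the list of glutathione peroxidases and transferases, 2 rose and 4 fell, with a median of -0.19. PTGES2, a prostaglandin E synthase in this list, was among those that fell (-0.36, limma adjusted p = 0.0411). With median-ratio scaling 5 rose and 2 fell, with a median of 0.05. LTC4S, the leukotriene C synthase, rose by 1.93 and MGST3 had a log2 fold change of -1.13 (limma adjusted p = 0.000221 and 0.000843). Under palbociclib alone LTC4S rose by 3.11 (limma adjusted p = 8.69e-05). The combination differed from palbociclib in LTC4S by -1.18 (limma adjusted p = 0.0223). A further list held thioredoxin, peroxiredoxin, superoxide dismutase and catalase genes, and also glutaredoxins, TXNIP, SRXN1, MSRA and MSRB2. Of its 20 tested genes, 6 rose and 9 fell, with a median of -0.11. With median-ratio scaling 8 rose and 5 fell, with a median of 0.12. In the values as deposited those that rose were SOD2, TXNIP, SRXN1, GLRX, MSRA and MSRB2, with no peroxiredoxin or catalase among them. SOD2, the mitochondrial superoxide dismutase, rose by 2.47 (limma adjusted p = 2.15e-05). The list genes named here by the rule kept direction and passed with median-ratio scaling and with quantile normalization. They were taken as DEG from these same data, so this says little. MGST3 and SECISBP2 no longer met the fold limit of a DEG with median-ratio scaling, at -0.916 and -0.863. Under TCP, 1 gene of the 7 lists passed, the peroxiredoxin PRDX1, with a log2 fold change of 0.98 (limma adjusted p = 0.00956).

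The patterns most like those of GPX4 and ACSL4 over the 8 libraries were sought among genes with a mean of at least 10 TPM, by Pearson's r of log2(TPM + 1). For GPX4 they were MFSD5, EFHD2 and MAPRE1, with r of 0.982, 0.971 and 0.97. For ACSL4 they were RAD51L3-RFFL, LPIN2 and FAM43A, with r of 0.97, 0.948 and 0.924. They are the highest of 9507 values each over only 8 libraries that share groups and replicate numbers, and are given as a description.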

How the data were processed

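MV4-11 cells were profiled by RNA-seq in 4 groups of 2 replicates. The authors aligned reads to hg19 with subread-align, obtained gene counts with featureCounts and deposited TPM. TPM keep no depth, so no counting interval can be given. By the methods the libraries were prepared with a stranded mRNA kit. Annotation, gene lengths and the strand setting of the counting are not given in the sources used here.

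The deposited TPM were tested as log2(TPM + 1) with limma 3.58.1 (R 4.3.3) in 1 model of the 4 groups, with a mean-variance trend and 4 residual degrees of freedom. Only genes reaching 1 TPM in 2 or more libraries entered, and Benjamini-Hochberg adjustment covered all 14151. Fold changes on this scale understate those of low genes.

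Same-numbered libraries were compared by the correlation, over genes, of their deviations from group means. It was 0.169 to 0.491 over the 6 pairs of groups, so the numbers were treated as pairing, from these values alone.

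The genes, lists, motif and tests were chosen with earlier results of these data known. The rule for named list genes took, per list, up to 3 increases and 3 decreases, the largest under the combination among DEG whose higher group averaged 5 TPM or more and whose libraries did not overlap with control. Of the genes this rule took, 1 is not reported here. COQ8A was matched as ADCK3. Gene coordinates are from GENCODE for GRCh37 (hg19).

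Alternatives were a pseudocount of 0.1, no filter, a filter on the mean (5 TPM), quantile normalization, median-ratio scaling, the block, only the groups compared, no trend, and leaving out each library. Block and median-ratio scaling together were added after seeing the data.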

Additional observations from a re-analysis of the deposited data

How the results depend on the processing

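Calls moved with the replicate block, the scaling and the libraries included. With the replicate block 1 of the 10 genes passed under TCP, 6 under the combination and 1 between the combination and palbociclib. Median-ratio scaling gave 5 under the combination, against 47% of all genes. With both, chosen after seeing the data, 1 passed under TCP, 7 under palbociclib, 7 under the combination and 1 between the combination and palbociclib, against 1.19%, 50.8%, 56.4% and 7.19% of all genes. With 1 library left out, 1 to 4 passed under palbociclib (1 without control replicate 1 or palbociclib replicate 2, 2 without control replicate 2), 2 to 4 under the combination and 2 to 4 between the combination and TCP (2 without combination replicate 1), against 27.9% to 49.7%, 36.9% to 57.6% and 33.5% to 47.5% of all genes. The cause was not tested.

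Of 882 single-gene values under an alternative, 788 kept direction and side of the threshold, 29 lost and 38 gained the call, and 27 turned. No value passed in the fit in which it had turned. With median-ratio scaling, with or without the block, GPX4 was at 0.0326 under TCP, GSS at 0.0263 under palbociclib and 0.116 under the combination, TXNRD1 at 0.00641 between the combination and palbociclib, and NQO1 at 0.113 between the combination and TCP. With quantile normalization GSS was at 0.0157 under palbociclib and 0.0983 under the combination, and NQO1 at 0.102 between the combination and TCP.

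With 1 library left out, values under TCP ran from -0.198 to 0.172 for GPX4, -0.104 to 0.151 for GCLC, -0.043 to 0.0662 for TXNRD1 and -0.293 to 0.0766 for ACSL4. Under the combination they ran from -0.0853 to 0.193 for ACSL4 and -0.0489 to 0.124 for LPCAT3. Between the combination and palbociclib TXNRD1 ran from -0.128 to 0.00978. Between the combination and TCP they ran from -0.0838 to 0.171 for GCLC, -0.373 to 0.234 for NQO1 and -0.0228 to 0.346 for ACSL4. With 2 libraries a group and no known depth, small changes of single genes are not resolved.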

Other observations

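Between the combination and palbociclib alone, a peroxiredoxin and catalase changed in opposite directions, and both are named here after their values were seen. PRDX1, an abundant thioredoxin-dependent peroxidase, had 500 and 555 TPM in control, 993 and 1085 TPM under TCP, 368 and 345 TPM under palbociclib, and 620 and 584 TPM under the combination. The groups did not overlap. PRDX1 rose under TCP by a log2 fold change of 0.98 (standard error 0.09, limma adjusted p = 0.00956) and, between the combination and palbociclib, by 0.75 (limma adjusted p = 0.0083), while palbociclib alone gave a log2 fold change of -0.56 (limma adjusted p = 0.00227). The order of its groups, with palbociclib lowest and TCP highest, is that of the mean TPM of NQO1.

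CAT, which encodes catalase, had 414 and 498 TPM in control, 337 and 375 TPM under TCP, 743 and 791 TPM under palbociclib, and 395 and 444 TPM under the combination. CAT rose under palbociclib by 0.75 (limma adjusted p = 0.00208), and the combination differed from palbociclib by a log2 fold change of -0.87 (limma adjusted p = 0.0122). Under TCP alone the log2 fold change of CAT was -0.35, which did not pass (limma adjusted p = 0.383).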
